A study of Saccharomyces cerevisiae with 18 samples.

Results

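The 10 histone genes of budding yeast were followed through 18 RNA sequencing libraries, as 10 of the 7126 genes in the deposited table. They were chosen by name: HTA1 and HTA2 (histone H2A), HTB1 and HTB2 (H2B), HHT1 and HHT2 (H3), HHF1 and HHF2 (H4), the linker histone gene HHO1 and the gene of the H2A variant H2A.Z, HTZ1. The study asked how the paralogs of the large subunit protein uL30, encoded by RPL7A and RPL7B, change translation when either is made from the same plasmid. The 3 strains were R28P-30B, R28P-30A and wild type (WT), with 2 cultures per strain, and each culture gave a total extract, a light fraction (40S and 60S subunits and 80S monosomes) and a heavy fraction (polyribosomes of the tetrasome and heavier). All share the BY background and the genotype his3D200 leu2D0 lys2D0 ura3D0. In the 2 plasmid strains the chromosomal genes are deleted (rpl7aD::URA3 rpl7bD::KMX), and a LEU2 plasmid carries the cDNA of RPL7A (R28P-30A) or of RPL7B (R28P-30B) behind the RPS28A promoter and before the ADH1 terminator. WT is MATa. The clones listed for each plasmid strain include both mating types, and which clone was sequenced is not given in the sources used here. Cultures grew exponentially at 30 °C, in Yc medium by one label and in synthetic minimal medium by another.

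The core histones H2A, H2B, H3 and H4 form the octamer that DNA wraps around to make a nucleosome. H2A.Z replaces H2A next to many promoters, and Hho1 binds linker DNA. Yeast transcribes its core histone genes in late G1 and S phase from divergent gene pairs, 1 pair per locus, and excess histone protein is toxic, so that transcription and mRNA decay are both tied to DNA replication. Yeast histone mRNAs carry poly(A) tails, unlike most histone mRNAs of animals, and so pass a poly(A) selection.

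The 8 core genes lie in 4 divergent pairs on chromosomes II, IV and XIV of the R64 genome. HTB1 (chrIV:914317-914712, minus strand) and HTA1 (chrIV:915530-915928, plus strand) are separated by 817 bases. HTA2 (chrII:235394-235792, minus) and HTB2 (chrII:236492-236887, plus) are separated by 699 bases. HHF1 (chrII:255373-255684, minus) and HHT1 (chrII:256331-256741, plus) are separated by 646 bases. HHT2 (chrXIV:575640-576050, minus) and HHF2 (chrXIV:576727-577038, plus) are separated by 676 bases. HTZ1 (chrXV:303579-303983, minus) and HHO1 (chrXVI:308828-309604, minus) stand apart from these pairs. All 10 coding sequences are single exons, and no other annotated gene overlaps them.

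The intergenic regions are shown where they match the letters TTCC and TTC spaced by 6 bases of any kind, the pattern of the histone upstream activating sequence that Spt10 binds. The matched letters are in capitals, and each sequence is read 5′ to 3′ on the strand named.
HTB1 and HTA1, chrIV:915106-915134, plus strand: tagcgctgTTCCaaaattTTCgcctcact
HTB1 and HTA1, chrIV:915131-915159, minus strand: acactccaTTCCaatagcTTCgcacagtg
HTA2 and HTB2, chrII:236102-236130, minus strand: gtaaggtgTTCCcattatTTCtcaaagtg
HHF1 and HHT1, chrII:255938-255966, minus strand: taaaactgTTCCgagcgcTTCtccccata
HHT2 and HHF2, chrXIV:576340-576368, minus strand: gttgtccgTTCCgagcacTTCgcattaag
All 4 histone regions held a match on either strand, against 25.6% of the 347 divergent coding gene pairs whose intergenic region is 600 to 900 bases long. The matches lie 261 to 426 bases from the flanking coding sequences, so none falls in the window of 250 bases before to 50 bases after a histone gene's start, where 7.76% of 6006 genes had one. The letters ACGCGT, which the MBF factor of G1/S transcription binds, occurred in 1 of the 4 regions (HTA2 and HTB2) against 8.36% of the 347. CACGAAA, which the SBF factor binds, occurred in 0 of the 4 against 10.7%, and in the start window of HTZ1 alone among the 10 genes against 4.20% of all windows. A match is a description of letters, not of binding.

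The 2 genes of each core histone differ little in their coding sequence, which bears on how reads can be told apart. HHF1 and HHF2 differ at 8 of 312 bases and encode the same protein. The stretch of coding bases 103 to 222 holds 4 of the 8 differences, given here in capitals.
HHF1, chrII:255463-255582, minus strand: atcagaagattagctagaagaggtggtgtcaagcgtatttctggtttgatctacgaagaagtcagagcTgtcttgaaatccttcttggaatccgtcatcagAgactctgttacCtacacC
HHF2, chrXIV:576829-576948, plus strand: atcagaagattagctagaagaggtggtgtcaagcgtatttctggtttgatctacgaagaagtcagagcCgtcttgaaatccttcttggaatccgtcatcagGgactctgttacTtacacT
HHT1 and HHT2 differ at 28 of 411 bases and also encode the same protein. HTA1 and HTA2 differ at 25 of 399 bases and 2 of 132 residues, and HTB1 and HTB2 at 48 of 396 bases and 4 of 131 residues. A window of 50 bases is shared by both genes at 21.3% of positions for H4, 12.2% for H3, 4.57% for H2A and 0% for H2B, and a window of 75 bases at 2.52% for H4 and 0% for H3, H2A and H2B. The authors kept all valid positions of a read, so some reads of HHF1 and HHF2 may have been counted for both genes. The sum over each pair is given beside the single genes, and a read counted for both genes enters that sum for each of them.

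The libraries held 17373839 to 31525927 reads on genes, and a histone gene had 1789 to 108885 reads in a library. The labels number the 2 cultures of a strain and say no more of how they were separated, and p-values measure the spread between them. RPL7A, checked in the total extracts, was at 4.31 and 4.59 transcripts per 1000000 (TPM) in R28P-30B, at 2201 and 2049 TPM in the libraries labelled R28P-30A and at 1617 and 1601 TPM in WT. RPL7B was at 3814 and 4126 TPM in R28P-30B and at 254 and 238 TPM in the libraries labelled R28P-30A, whose genotype deletes it, against 323 and 325 TPM in WT. URA3, the marker of the RPL7A deletion, was at 370 and 373 TPM in R28P-30B, at 0.151 and 0 TPM in the libraries labelled R28P-30A and at 0 and 0.0390 TPM in WT. LEU2, the plasmid marker, was at 482 and 510 TPM in R28P-30B, at 72.3 and 61.3 TPM in the libraries labelled R28P-30A and at 0.0292 and 0.0286 TPM in WT. The libraries labelled R28P-30A thus hold the plasmid marker their label names but go against their genotype in RPL7B and URA3, and they are called by their label throughout. The MATa genes MFA1, MFA2, STE2, BAR1 and AGA2 averaged 128 to 4908 TPM in all strains, while the MATalpha genes MF(ALPHA)1, MF(ALPHA)2, STE3 and SAG1 averaged 0.794 to 28.5 TPM.

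Histone mRNAs were among the most abundant in WT total extracts, with the H4 genes first. TPM here was computed from reads and coding length and compares genes per length. HHF1 had 4064 and 4216 TPM in WT and ranked 15 of 6013 coding genes. HHF2 followed with 3315 and 3144 TPM, then HTA1 with 2853 and 2588, HHT2 with 2504 and 2475, and HTB1 with 2314 and 2292 TPM. Each of these 5 was above the next in both WT cultures. HHT1 (2195 and 1683 TPM), HTB2 (1599 and 1790 TPM) and HTA2 (1722 and 1316 TPM) overlapped one another. HTZ1 had 237 and 221 TPM and HHO1 167 and 183 TPM, ranks 646 and 895. Summed over both genes, H4 had 7361 to 7380 TPM, H3 4157 to 4700, H2A 3904 to 4575 and H2B 3913 to 4082 TPM, so the message for H4 stood above that of the other core histones in both WT cultures. Reads counted for both genes of a pair would raise these sums, and the H4 genes share the most windows. The number of such reads is not known. The core genes took 0.893% and 0.815% of the reads of the WT total extracts.

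**Figure D1:**
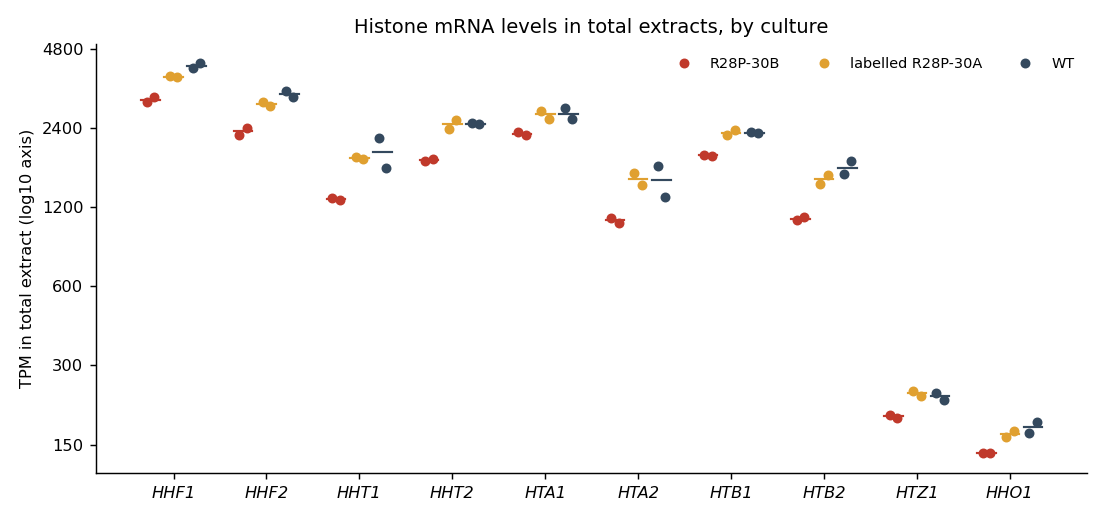
TPM of each histone gene in the total extract of each culture (log10 axis) in R28P-30B, the libraries labelled R28P-30A and WT; points are cultures and bars their mean. The R28P-30B points are the lowest for all 10 genes.

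Relative to the other mRNAs of each library, those of the core histones were more abundant in the light fraction, while that of the linker histone was more abundant in the heavy one. The translation index, read counts per 1000000 (CPM) in the heavy fraction divided by those in the same culture's light fraction, was 0.0939 and 0.103 for HHT1 in WT, against a median of 0.860 over the 5664 genes tested. HHF2 had 0.191 and 0.225, HHT2 0.202 and 0.237, HTB1 0.237 and 0.267, HTA1 0.247 and 0.266, and HTA2 0.311 and 0.356. HTB2 (0.489 and 0.581) and HHF1 (0.492 and 0.575) were the core genes with the highest index. HTZ1 had 0.671 and 0.746. HHO1 had 1.41 and 1.63, above the median gene in both cultures. Both WT cultures put each histone gene on the same side of the median gene.

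Relative to the median gene of each culture, the heavy over light log2 ratio in WT was −3.13 for HHT1 (SE 0.067, adjusted p = 3.85e-13, limma), −2.05 for HHF2 and −1.97 for HHT2. HTB1 was at −1.77, HTA1 at −1.74, HTA2 at −1.37, HHF1 and HTB2 at −0.69, and HTZ1 at −0.28. HHO1 was at 0.82 (SE 0.086, adjusted p = 7.02e-07, limma). Thus 9 of the 10 genes, with all 8 core genes among them, passed an adjusted p of 0.05 on the light side, where 41.7% of the genes tested did, and HHO1 passed on the heavy side, as did 41.9%. The median over the 8 core genes was −1.76 on this log2 scale, against −0.00 over all genes. In R28P-30B the same 9 genes were called light and HHO1 heavy (0.33, SE 0.086). There 2444 of the 5664 genes tested (43.1%) were called light and 2459 heavy. In the libraries labelled R28P-30A the 8 core genes were called light and HHO1 heavy, and HTZ1 was at 0.13 (SE 0.063, adjusted p = 0.0763, limma). In those libraries 2335 of the 5664 genes tested (41.2%) were called light and 2367 heavy.

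**Figure D2:**
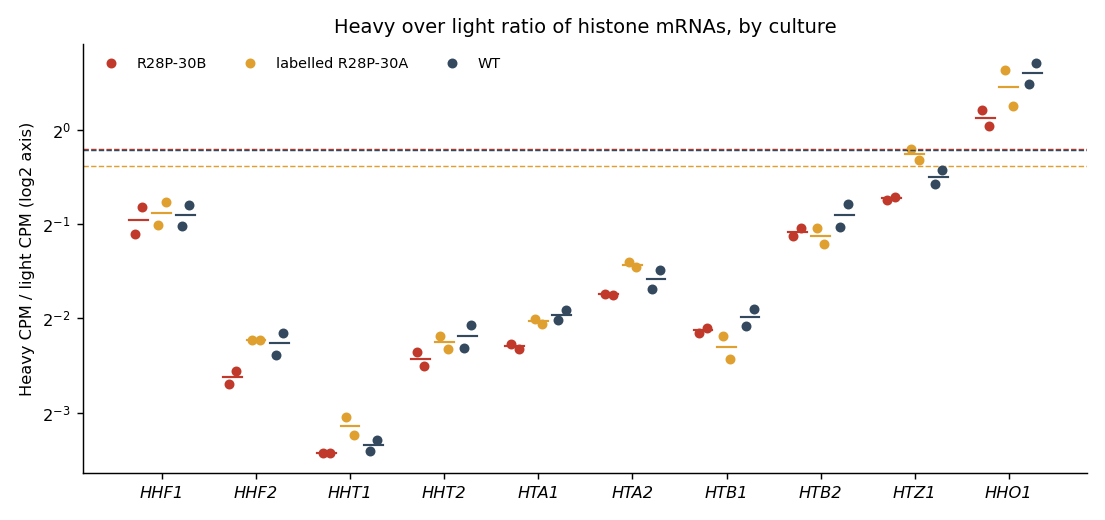
Heavy CPM over light CPM of each histone gene by culture (log2 axis), with the strain's mean as a bar and the median over 5664 genes of each strain as a dashed line (the lines of R28P-30B and WT nearly coincide). The 8 core genes lie below the lines in all 6 cultures and HHO1 lies above them.

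Short coding sequences hold fewer ribosomes, so the index was also set beside that of 575 genes with 300 to 500 nt of coding sequence, whose WT median was 0.504. HHT1 was higher than 0.348% of these in WT, HHF2 than 6.78%, HHT2 than 8.35%, and HTB1, HTA1 and HTA2 than 13.04%, 13.9% and 25.04%. HHF1 and HTB2 were higher than 53.0% and 53.2%, and HTZ1 than 71.1%. The index of HHF1, HTB2 and HTZ1 was thus near or above the middle of genes of their length, while that of HHT1 was near the bottom. HHO1, with 777 nt of coding sequence, was higher than 84.4% of all genes tested.

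**Figure D3:**
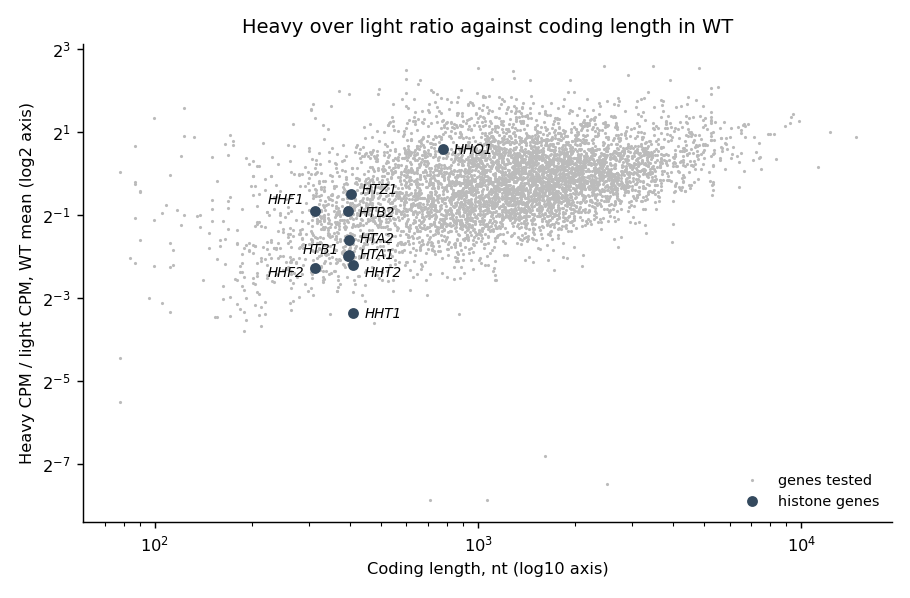
WT mean of heavy CPM over light CPM (log2 axis) against coding length in nt (log10 axis) for 5664 genes, in grey, with the histone genes marked. HHT1 lies at the lower edge of genes of its length, while HHF1, HTB2 and HTZ1 lie among them.

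Genes that encode the same histone differed in this distribution. In WT the index of HHF2 averaged 0.208 ± 0.024 and that of HHF1 0.534 ± 0.058 (SD, n = 2), although both make the same H4 protein. The TPM ratio of HHF2 to HHF1 was 0.459 to 0.501 in the heavy and 1.51 to 1.53 in the light fractions of R28P-30B, 0.456 to 0.496 and 1.16 to 1.25 in the libraries labelled R28P-30A, and 0.488 to 0.502 and 1.25 to 1.29 in WT. HHF2 was therefore the more abundant H4 message in the light fraction and the less abundant one in the heavy fraction in all 6 cultures. In the H3 pair it was HHT1, the gene on chromosome II, that leaned to the light fraction: HHT2 over HHT1 was 1.78 to 1.90 in heavy and 0.821 to 0.827 in light fractions of WT. HTB1 over HTB2 was 0.911 to 0.928 in heavy and 1.92 to 1.98 in light fractions of WT, and HTA1 over HTA2 was 1.21 to 1.23 in heavy and 1.54 to 1.62 in light fractions. These ratios are descriptions without a test.

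Set against the total extract of the same culture, the light fraction held the core mRNAs in excess. CPM of HHT1 in the heavy fraction was 0.347 and 0.457 times that in the total extract of WT, and in the light fraction 3.69 and 4.45 times. For HHF1 these were 0.721 and 0.843 times in heavy and 1.46 and 1.47 times in light. HHO1 was at 1.51 and 1.44 times in heavy and 1.08 and 0.882 times in light, so that it was the heavy fraction that held it in excess. The median gene was at 0.870 and 0.864 times in heavy and at 1.04 and 1.01 times in light. For genes of 300 to 500 nt the medians were 0.722 and 0.734 times in heavy and 1.46 and 1.44 times in light. HHF1 was thus close to the middle of genes of its length in the light fraction. The core genes together took 0.498% and 0.552% of the reads in heavy, 2.01% and 1.91% in light and 0.893% and 0.815% in total libraries of WT.

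The total extracts of R28P-30B held less histone mRNA than those of WT, for every histone gene. HTB2 had 1072 and 1096 TPM in R28P-30B, against 1599 and 1790 TPM in WT, a log2 difference of −0.64 (SE 0.070, adjusted p = 6.62e-07, limma). HHT1 had 1294 and 1279 TPM in R28P-30B, against 2195 and 1683 TPM in WT (−0.58, SE 0.087), and HTA2 had 1087 and 1047 TPM, against 1722 and 1316 TPM in WT (−0.50, SE 0.090). WT cultures of these 2 genes lay far apart, yet both R28P-30B cultures lay below both. HHF2 fell to 2264 and 2395 TPM in R28P-30B, against 3315 and 3144 TPM in WT (−0.47, SE 0.069). HHT2 fell to 1796 and 1828 TPM, against 2504 and 2475 TPM in WT (−0.46, SE 0.067), and HHF1 to 3019 and 3131 TPM, against 4064 and 4216 TPM in WT (−0.43, SE 0.069). Both genes of H3 and of H4 were thus lower in each R28P-30B culture than in either WT culture. The H2A and H2B genes of chromosome IV differed less: HTB1 had 1886 and 1884 TPM in R28P-30B, against 2314 and 2292 TPM in WT (−0.29, SE 0.065), and HTA1 had 2314 and 2249 TPM, against 2853 and 2588 TPM in WT (−0.25, SE 0.071). HHO1 had 140 and 139 TPM in R28P-30B, against 167 and 183 TPM in WT (−0.32, SE 0.067), and HTZ1 had 195 and 190 TPM, against 237 and 221 TPM in WT (−0.25, SE 0.064).

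All 10 genes were called lower at an adjusted p under 0.05, where 13.5% of 5686 genes tested were, and the largest adjusted p among them was 0.0127, for HTA1 (limma). In these bulk extracts, fewer cells in S phase and less histone mRNA per cell cannot be told apart. The median log2 difference of the 10 genes was −0.44, against −0.05 for all genes tested. Both R28P-30B libraries were below both WT libraries for 10 of 10 genes, as for 41.0% of all genes. The balance between the H2A loci and between the H2B loci also moved, in a description without a test: HTA1 over HTA2 was 2.13 to 2.15 in R28P-30B and 1.66 to 1.97 in WT, and HTB1 over HTB2 was 1.72 to 1.76 in R28P-30B and 1.28 to 1.45 in WT. The calls of HTA1 and HTZ1 were lost most often: edgeR on the recovered reads called the other 8 genes and DESeq2 7, without HTA2 as well, and after centring on the median gene 6 were called, without HTA1, HTA2, HTB1 and HTZ1. HTA1 was also not called without WT replicate 1 or without either R28P-30B replicate, and HTZ1 not without R28P-30B replicate 2.

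**Figure D4:**
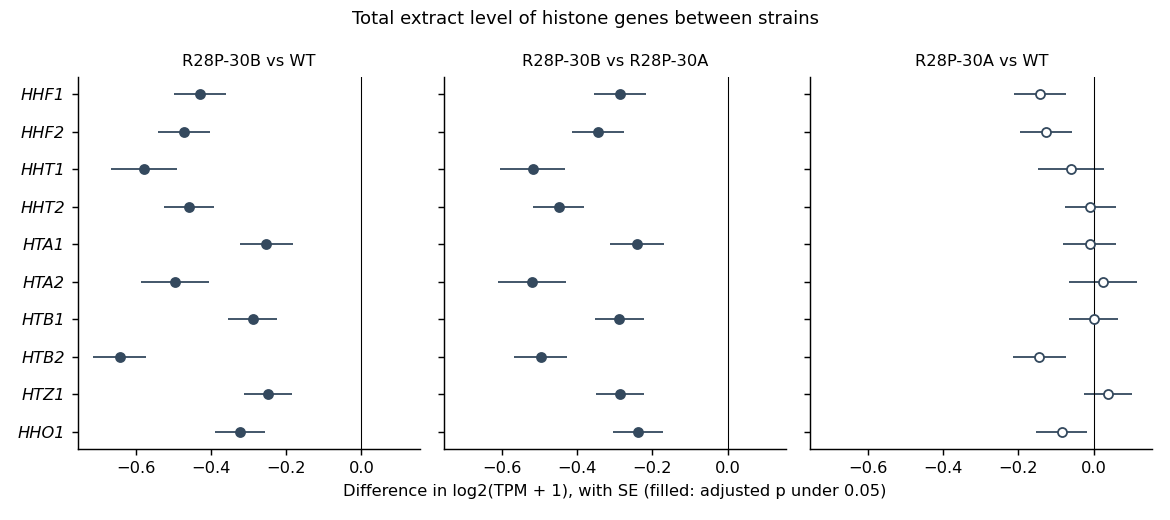
Difference in log2(TPM + 1) of total extracts with its SE for each histone gene, between R28P-30B and WT, R28P-30B and the libraries labelled R28P-30A, and the libraries labelled R28P-30A and WT; filled points have an adjusted p under 0.05. All 10 genes are filled and below 0 in the 2 comparisons with R28P-30B on top, and none is filled in the third.

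Against the libraries labelled R28P-30A, R28P-30B was again lower for all 10 genes, where 6.24% of genes were called lower. The log2 differences ran from −0.52 for HTA2 (1087 and 1047 TPM in R28P-30B, 1613 and 1453 TPM in the libraries labelled R28P-30A, SE 0.090, adjusted p = 0.000444, limma) to −0.24 for HHO1 (140 and 139 TPM, against 160 and 169 TPM, SE 0.067, adjusted p = 0.0233). HHT1 differed by −0.52, HTB2 by −0.50, HHT2 by −0.45 and HHF2 by −0.34, and HTB1, HTZ1, HHF1 and HTA1 by −0.29 to −0.24. Both R28P-30B libraries were below both others for all 10 genes, as for 37.2% of all genes. This comparison and the one with WT share the R28P-30B libraries, and each of the 3 comparisons shares libraries with the other two. After centring on the median gene 3 genes were called (HTB2, HHT2 and HHO1), and DESeq2 called 7, without HTA1, HTA2 and HHT1. Of all genes, 5.61% were called lower after centring and 5.22% by DESeq2. Without R28P-30B replicate 1, 6 were called (lost HTA1, HTB1, HHF1 and HHO1), without R28P-30B replicate 2, 5 (lost HTZ1 as well), and without any other single culture 9, with HTA1 or, without R28P-30A replicate 2, HHO1 lost.

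The libraries labelled R28P-30A and WT showed no such difference. None of the 10 genes was called by limma, where 1.07% of genes were called in either direction, nor by edgeR or DESeq2, and only HHF1 had an unadjusted p under 0.05 by limma. Of the 5686 genes tested, 500 had such an unadjusted p. The log2 differences ran from −0.15 for HTB2 (1469 and 1594 TPM, against 1599 and 1790 TPM in WT) to 0.04 for HTZ1 (240 and 230 TPM, against 237 and 221 TPM in WT), with SE of 0.064 to 0.090.

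The fractions were given as levels only, without a test, since they enter the translation index. Summed over the core genes, the heavy fraction held 8336 and 9302 TPM in R28P-30B, 12166 and 12460 TPM in the libraries labelled R28P-30A and 12388 and 13980 TPM in WT. The light fraction held 25524 and 26639 TPM in R28P-30B, 36724 and 38463 TPM in the libraries labelled R28P-30A and 36933 and 36223 TPM in WT. Both heavy libraries of R28P-30B were below both of WT for all 10 histone genes, as for 50.1% of all genes, and both light libraries for 9 of 10, all but HHO1, as for 60.9% of all genes. The median log2 difference from WT over the 10 genes was −0.53 in heavy and −0.42 in light fractions, against −0.10 and −0.16 over all genes. Against the libraries labelled R28P-30A, both R28P-30B libraries were lower for all 10 genes in heavy fractions, as for 34.9% of all genes, and for all 10 in light fractions, as for 74.5% of all genes.

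The balance between histones ran from 0.693 to 0.759 over the 6 total extracts. The summed TPM of the H2A and H2B genes over that of the H3 and H4 genes was 0.759 and 0.727 for R28P-30B, 0.738 and 0.726 for the libraries labelled R28P-30A and 0.703 and 0.693 for WT, which lay below both plasmid strains. In heavy fractions the ranges overlapped, at 0.726 to 0.801 for R28P-30B, 0.725 to 0.817 for the libraries labelled R28P-30A and 0.768 to 0.776 for WT. In light fractions they did not overlap. The ratio there was 0.636 to 0.641 for R28P-30B, 0.699 to 0.704 for the libraries labelled R28P-30A and 0.601 to 0.629 for WT. This balance was not tested.

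The translation index of 3 histone genes was lower in R28P-30B than in WT. In R28P-30B, HHO1 had an index of 1.15 and 1.03, against 1.41 and 1.63 in WT, a log2 difference of −0.48 (SE 0.118, adjusted p = 0.00872, limma). HHF2 had 0.154 and 0.170 in R28P-30B, against 0.191 and 0.225 in WT (−0.36, SE 0.099), and HTA1 had 0.207 and 0.200, against 0.247 and 0.266 in WT (−0.33, SE 0.091). These 3 were called lower, a share of the 10 genes to be read against the 10.2% of genes called lower in this comparison. The other 7 differed by −0.24 (HHT2) to −0.05 (HHF1) and were not called, 2 of them (HTZ1 and HHT2) with an unadjusted p under 0.05. With the 3 called, 5 of the 10 genes had an unadjusted p under 0.05 by limma, as did 2120 of the 5664 genes tested. The median of the 10 genes was −0.20, against −0.04 over all genes tested. Over genes of 300 to 500 nt the median index was 0.454 in R28P-30B and 0.504 in WT, so it was lower for short genes too. The histone genes were not tested against genes of their length. The 3 calls were also made by edgeR and DESeq2 but none remained without WT replicate 2, without R28P-30B replicate 2 or with the variance trend taken on the ratio itself, and HHO1 alone remained without R28P-30B replicate 1.

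R28P-30B and the libraries labelled R28P-30A differed at 6 of the 10 genes, all lower in R28P-30B, where 15.4% of genes were called lower and 30.7% higher. Centring on the median gene, edgeR and DESeq2 each added HHT2 to these 6, while the share of all genes called lower became 33.0%, 31.8% and 26.7%. Short genes were lower here too: those of 300 to 500 nt had a median index of 0.454 in R28P-30B, against 0.503 for the label R28P-30A. The median over all genes tested went the other way, at 0.870 against 0.765. Whether the histone genes differed more than genes of like length was not tested. HTZ1 had 0.598 and 0.611 in R28P-30B, against 0.870 and 0.802 in the libraries labelled R28P-30A, a log2 difference of −0.47 (SE 0.096, adjusted p = 0.000684, limma). HHF2 had 0.154 and 0.170, against 0.212 and 0.214 (−0.40, SE 0.099), and HTA2 had 0.300 and 0.297, against 0.378 and 0.365 (−0.32, SE 0.093). HHO1 (−0.32), HHT1 (−0.29) and HTA1 (−0.27) completed the 6, while HTB1 was at 0.18 and HTB2 at 0.04, both short of the threshold. The H2B genes thus were the only ones above 0 in this comparison, while centring on the median gene, which moved the median over all genes to −0.11 from 0.07, put HTB1 at −0.00 and HTB2 at −0.14. Without R28P-30B replicate 2 only HTZ1 and HHF2 were called, without R28P-30B replicate 1 only HTA2, HTZ1 and HHO1, without R28P-30A replicate 1 HTB1 was called higher and HHT1 and HHO1 were lost, and with the variance trend taken on the ratio itself only HTZ1.

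Between the libraries labelled R28P-30A and WT, HTB1 alone was called, with an index of 0.220 and 0.186, against 0.237 and 0.267 in WT (−0.32, SE 0.101, adjusted p = 0.0254, limma). In this comparison 30.8% of genes were called in either direction and 25.3% lower, and the median gene was at −0.13, against 0.04 after centring. Relative to the median gene of each culture HTB1 was at −0.15 and not called, and HTZ1 (0.41), HHT1 (0.37) and HTA2 (0.33) were called higher, as by edgeR and DESeq2. Of all 5664 genes tested, 862 were called higher when centred, 866 by edgeR and 744 by DESeq2. HTB1 was also not called without WT replicate 2, without R28P-30A replicate 2 or with the variance trend on the ratio itself, and the 3 genes called without R28P-30A replicate 1 were HTB1, HTB2 and HHO1. By the study's own rule, a difference in mean index of more than 0.5 on the log2 scale with no test, none of the 10 genes differed in any of the 3 comparisons, which called 502, 745 and 1415 of 5664 genes for R28P-30B against WT, the libraries labelled R28P-30A against WT, and R28P-30B against them. The histone gene nearest to that threshold was HHO1 in R28P-30B against WT, at −0.48.

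**Figure D5:**
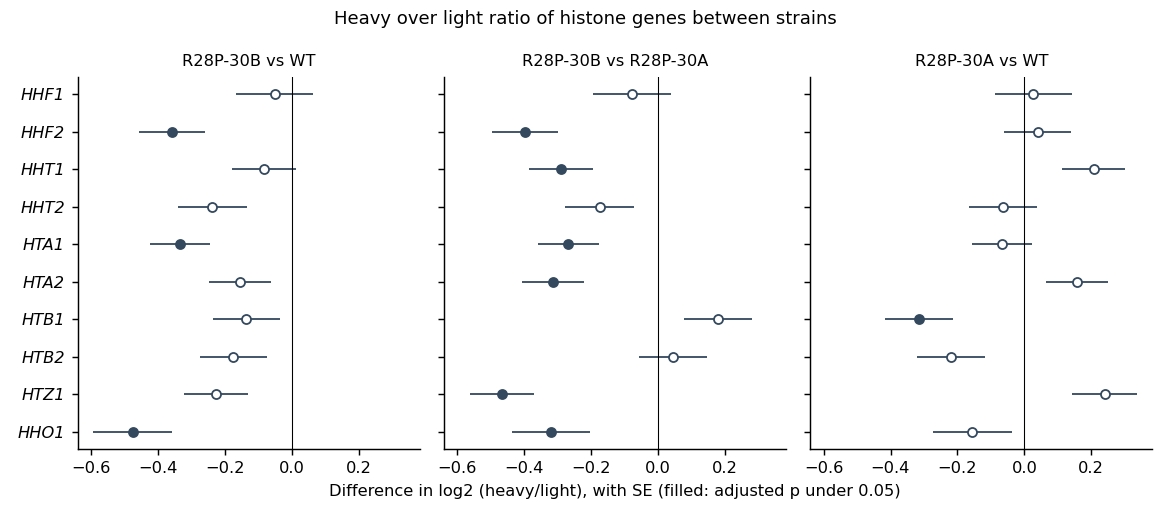
Difference in the log2 ratio of heavy to light CPM with its SE for each histone gene in the same 3 comparisons; filled points have an adjusted p under 0.05. All 10 genes lie below 0 in R28P-30B against WT, with HHF2, HTA1 and HHO1 filled.

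Genes that mark stages of the cell cycle were set beside the histone genes in total extracts, from lists described by counts without a test of the list. Of 19 genes of G1/S and S phase, 6 were lower in R28P-30B than in WT and 1 (CLN1, a G1 cyclin gene, 0.29) was higher, with a median log2 difference of −0.15, against −0.05 over all genes, of which 13.5% were lower and 10.7% higher. Their summed level was 1251 to 1289 TPM in R28P-30B, 1340 to 1426 TPM in the libraries labelled R28P-30A and 1356 to 1455 TPM in WT. RNR1, the large subunit of ribonucleotide reductase, had 114 and 121 TPM in R28P-30B, against 178 and 175 TPM in WT (−0.58, SE 0.072).

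Of 12 genes of G2/M and M/G1, 4 were higher and 5 lower in R28P-30B than in WT (10.7% and 13.5% of all genes), with a median of −0.03. Their summed level was 1754 to 1765 TPM in R28P-30B, 2151 to 2241 TPM in the libraries labelled R28P-30A and 2302 to 2515 TPM in WT. CDC20, an activator of the anaphase-promoting complex, had 90.5 and 93.6 TPM in R28P-30B, against 61.1 and 68.6 TPM in WT (0.50, SE 0.074). The genes of cell separation CTS1 (550 and 546 TPM, against 951 and 1051 TPM in WT, −0.86) and EGT2 (176 and 187 TPM, against 313 and 349 TPM in WT, −0.86) were lower. CTS1 and EGT2 made up most of the difference in the summed level: the other 10 genes summed to 1020 to 1039 TPM in R28P-30B, 1025 to 1108 TPM in the libraries labelled R28P-30A and 1038 to 1116 TPM in WT. In R28P-30B against the libraries labelled R28P-30A, 3 of the 19 genes were lower and none higher, and of the 12 genes 2 were higher and 4 lower, where 6.24% of all genes were lower and 5.98% higher. Neither list held a gene called between the libraries labelled R28P-30A and WT. The part of cell cycle stage in the histone levels was not tested.

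Of 12 genes that regulate histone transcription (HIR1, HIR2, HIR3, HPC2, ASF1, RTT106, YTA7, SPT10, SPT21, SWI4, SWI6 and MBP1), only ASF1, a histone chaperone that works with the HIR complex, was called in total extracts, with 127 and 129 TPM in R28P-30B, against 148 and 156 TPM in WT (−0.25, SE 0.068). The median of the 12 was −0.13. Of all genes, 13.5% were called lower and 10.7% higher. Of 14 chaperones and deposition factors tested, 5 were lower in R28P-30B than in WT (13.5% of all genes) and none higher, with a median of −0.18: MSI1 (−0.45) and CAC2 (−0.34) of the CAF-1 complex, SCM3 (−0.31), a chaperone of the centromeric H3 variant, VPS75 (−0.28), a chaperone of H3 and H4, and POB3 (−0.22), a subunit of the FACT complex. Against the libraries labelled R28P-30A, 1 of the 12 regulators and 2 of the 14 chaperones were lower and none higher. Of all genes, 6.24% were lower and 5.98% higher there. In the translation index of R28P-30B against WT, 3 of the 12 regulators were higher and 2 lower, with SPT10 at 0.47 and ASF1 at −0.58, and 2 of the 14 chaperones were higher and 1 lower, with the FACT subunit gene SPT16 at 0.55, where 12.4% of all genes were higher and 10.2% lower. In WT, 9 of the 12 regulators and 11 of the 14 chaperones were called on the heavy side, where 41.9% of all genes were, and 1 and 2 on the light side, where 41.7% of all genes and the 8 core histone genes were.

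Across the 18 libraries the log2 CPM of each of HHT2, HHT1, HHF2, HTB1 and HTA1 followed the mean of the 8 core genes, which contains them, with Pearson's r of 0.990 to 0.996, HTA2 with 0.981, HHF1 with 0.950 and HTB2 with 0.925. HTZ1 had 0.873 and HHO1 −0.42. The non-histone genes with the pattern most like the core mean were YEA6 (r = 0.993), NRG2 (0.992), RHB1 (0.991), KAR4 (0.991) and PER33 (0.990), whose WT index was 0.237 to 0.566. The libraries share 3 fractions and 6 cultures, so these values carry the split between light and heavy fractions.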

How the data were processed

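The authors selected poly(A) RNA, fragmented to 200 nt, made directional libraries, aligned reads to R64 with STAR, kept all valid positions and counted reads on genes with featureCounts. Read length is not given in the sources used here. The deposited CPM covers 18 libraries and 7126 genes, and the deposited TPM covers 16 libraries and 7124 genes. Dividing CPM by its smallest step gave whole numbers of reads for 100% of values (tolerance 0.05), and these recovered reads were used where counts were needed. The deposited TPM of HTB2 was 0.0099 to 1.32 times the TPM recomputed from reads and coding length, depending on the library, so the recomputed TPM (6013 genes) was used. Columns were matched to samples by name and 0 were left over.

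The index was fitted with limma 3.58.1 (R 4.3.3) on log2((heavy CPM + 0.1)/(light CPM + 0.1)) for 5664 genes with a mean above 1 TPM in WT total extracts and reads in all polysome libraries, and total extracts on log2(TPM + 1) for 5686 genes with a mean above 1 TPM, with 1 spread for 3 strains and a Benjamini-Hochberg adjusted p under 0.05. Fold changes are on those log2 scales. The heavy over light ratio was centred on the median gene of each culture. The variance trend of the index was taken on mean abundance, a choice made after both trends were seen. The members and gene lists were chosen with earlier results of these data known. All 10 histone genes are named, with the genes that check the labels, up to 4 called genes of the lists per comparison by size of change, and the 5 genes most correlated with the core mean. CLN1, ASF1 in total extracts and the 5 called chaperones were named after their values were seen. Scripts were tested on simulated counts. edgeR 4.0.16 and DESeq2 1.42.0 on recovered reads, other filters, pseudocounts, scalings and left-out cultures were tried. Sequences and coordinates come from the RefSeq copy of R64, read with Python 3.11.15.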

Additional observations from a re-analysis of the deposited data

Results flagged for a closer look

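The translation index of single histone genes differed between strains in the limma fit, which tests whether the difference between heavy and light fractions is itself different between strains. For R28P-30B against WT the log2 differences were −0.48 for HHO1, −0.36 for HHF2 and −0.33 for HTA1. For R28P-30B against the libraries labelled R28P-30A they were −0.47 for HTZ1, −0.40 for HHF2, −0.32 for HHO1, −0.32 for HTA2, −0.29 for HHT1 and −0.27 for HTA1. For the libraries labelled R28P-30A against WT it was −0.32 for HTB1. With 2 cultures per strain no culture could be tested as standing apart from its group.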

How the results depend on the processing

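Under every setting that kept all cultures, the heavy over light calls in WT, in either direction, were 10 of 10. Of all genes, 4736 of 5664 were called in the main fit and 4801 of 5796 with no expression filter. In the order R28P-30B against WT, R28P-30B against the libraries labelled R28P-30A, and these against WT, leaving out 1 culture gave 8 to 10, 5 to 9 and 0 to 0 histone calls in total extracts (main 10, 10 and 0) and 0 to 4, 2 to 6 and 0 to 3 for the index (main 3, 6 and 1). All-gene calls then were 735 to 1524, 358 to 676 and 1 to 223 in total extracts (main 1377, 695 and 61) and 384 to 1474, 1959 to 2580 and 1045 to 1689 for the index (main 1283, 2609 and 1747). Index calls of R28P-30B against WT were 384 without WT replicate 2, and 460 and 835 without R28P-30B replicates 2 and 1. With only 2 numbers per strain, the cultures' numbers did not establish a pairing across strains, with correlations of deviations of 0.117 to 0.157 in total extracts and −0.167 to 0.149 for the index. With the replicate block the histone calls stayed at 10, 10 and 0 and at 3, 6 and 1, and all-gene calls were 1898, 1074 and 126 in total extracts and 1260, 2615 and 1735 for the index, with 1137 genes lower in total extracts of R28P-30B than of WT and 612 lower than in the libraries labelled R28P-30A (768 and 355 without the block). A variance trend on the log2 ratio, like deposited CPM and scaling without ribosomal protein genes chosen after seeing the data, left 0, 1 and 0 histone index calls and 781 all-gene calls of R28P-30B against WT. Centring left 6 and 3 histone calls in total extracts, edgeR 8 and 9, DESeq2 7 and 7, and each of them gave 3 index calls for the libraries labelled R28P-30A against WT. Of all genes, centring called 1506 and 749 in total extracts, 678 and 319 of them lower. On recovered reads edgeR called 1569, 860 and 23 genes in total extracts and 1329, 3018 and 1478 for the index, and DESeq2 1372, 771 and 82, and 898, 2579 and 1169. In total extracts of the libraries labelled R28P-30A against WT, 1 gene was called centred, 6 with no filter and 141 in a fit of those strains alone.

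Scaling moved the share of calls that were lower. It was 55.8% in total extracts of R28P-30B against WT (45.0% centred, 42.4% edgeR, 41.6% DESeq2), 51.1% against the libraries labelled R28P-30A (42.6%, 39.3%, 38.5%), 82.0% for the index of those against WT (41.3%, 41.4%, 36.4%), 33.4% for the index of R28P-30B against them (60.9%, 59.7%, 58.7%) and 49.8% for heavy over light (61.3% not centred).

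No gene called in the main fit changed direction, and uncalled below means not called in that fit. Among uncalled values, in the order centred, edgeR and DESeq2, the index of the libraries labelled R28P-30A against WT turned to 0.10, 0.102 and 0.115 for HTA1, 0.103, 0.104 and 0.118 for HHT2 and 0.0108, 0.0128 and 0.0259 for HHO1, and that of R28P-30B against them to −0.136, −0.129 and −0.134 for HTB2 and, centred, −0.00133 for HTB1. In total extracts of the libraries labelled R28P-30A against WT, HTB1 turned to 0.0117, 0.0102 and 0.0105, to 0.000366 with deposited CPM and to 0.00356 without ribosomal protein genes, HHT2 to 0.00300, 0.00175 and 0.00201, and HTA1, centred, to 0.00109. Leaving out 1 culture gave index values of −0.196 to 0.0916 for HHF1 in R28P-30B against WT, of −0.0424 to 0.131 for HTB2 and −0.223 to 0.0652 for HHF1 in R28P-30B against the libraries labelled R28P-30A, and in those against WT of −0.181 to 0.0537 for HHT2, −0.0937 to 0.147 for HHF1, −0.0792 to 0.158 for HHF2 and −0.345 to 0.0341 for HHO1. Total extract values of the libraries labelled R28P-30A against WT ran over −0.0813 to 0.0592 for HTA1, −0.169 to 0.218 for HTA2, −0.0333 to 0.0324 for HTB1, −0.252 to 0.132 for HHT1, −0.0666 to 0.0483 for HHT2 and −0.00968 to 0.0854 for HTZ1. The cause was not tested.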
